A study of Mus musculus with 8 samples.

Results

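Erythroid progenitors are the cells that will make red blood cells but have not yet filled with hemoglobin. Here they were chosen by measured RNA counts, as the cells of bone marrow and spleen with at least 1 unique molecular identifier (UMI, 1 counted RNA molecule) of Klf1, at least 2 of Car1, and less than 50% of their UMIs from the genes Hba-a1, Hba-a2, Hbb-bs and Hbb-bt. This rule found 421 of the 20012 cells of the series. Marrow gave 203 of 5682 cells (3.57%) and spleen 218 of 6105 (3.57%), while none of the 7763 blood or 462 tumor cells met it, which allows shares of up to 0.0386% and 0.649%. The question of this comparison is how the same kind of progenitor differs between its usual site and the spleen.

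All mice were female C57BL/6J mice carrying a subcutaneous tumor of MOPC cells, a mouse oropharyngeal carcinoma line, and no mouse without a tumor was part of the comparison. The labels put WT mice and mice of a gene knockout model, given only as Genotype_02, in each library and give no age. They do not say which hashtag belongs to which mouse or genotype, so the genotypes within both tissues are unknown. Hashtags are barcoded antibodies that mark the mouse a cell came from. Each hashtag was taken as 1 mouse, which is an assumption, so all p-values rest on the spread from hashtag to hashtag. With 1 library for each tissue, effects of tissue and of library cannot be told apart. Sorting kept living cells that carried Gr1 and no lineage marker, or cKit and no Gr1. Ter119, a protein of later red cells, was among the lineage markers, and red cells had been lysed. Cell numbers were evened out before the sort, so shares of cells are no frequencies in the organ.

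Red cell production starts from multipotent cells in which the transcription factor GATA2 is active, and GATA1 takes its place as cells commit to the lineage. KLF1, TAL1 and LMO2 act with GATA1 on genes of heme, iron uptake, the membrane and globin. Erythropoietin, through its receptor EPOR, keeps these cells alive, and KIT supports their growth. In mice the spleen can make red cells beside the marrow, most of all under stress.

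The promoters of 3 genes of this program are shown because the genes went different ways between the tissues: Epor was not called, Icam4 was lower in spleen and Tal1 was higher. The 250 bases before each gene's start are from RefSeq (GRCm38.p6), and capitals mark the GATA motif AGATAA, here on the other strand as TTATCT. Each window shown was taken from those that hold the motif, so the motif's presence in all 3 was fixed in advance. Epor, the erythropoietin receptor, at chr9:21963577-21963826 on the minus strand, has the motif 54 bases before its start. Icam4, a red cell adhesion protein, at chr9:21029182-21029431 on the plus strand, has it 43 bases before. Tal1 at chr4:115056176-115056425 on the plus strand has it 205 bases before.
Epor: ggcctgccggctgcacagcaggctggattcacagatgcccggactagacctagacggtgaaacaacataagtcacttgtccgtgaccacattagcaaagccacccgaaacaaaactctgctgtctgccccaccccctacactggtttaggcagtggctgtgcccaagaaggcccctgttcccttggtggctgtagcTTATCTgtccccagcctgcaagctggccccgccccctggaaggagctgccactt
Icam4: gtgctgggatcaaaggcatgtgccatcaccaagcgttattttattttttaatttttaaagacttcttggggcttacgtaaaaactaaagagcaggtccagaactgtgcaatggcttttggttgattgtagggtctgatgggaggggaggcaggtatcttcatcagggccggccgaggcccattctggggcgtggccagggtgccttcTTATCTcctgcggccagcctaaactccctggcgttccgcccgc
Tal1: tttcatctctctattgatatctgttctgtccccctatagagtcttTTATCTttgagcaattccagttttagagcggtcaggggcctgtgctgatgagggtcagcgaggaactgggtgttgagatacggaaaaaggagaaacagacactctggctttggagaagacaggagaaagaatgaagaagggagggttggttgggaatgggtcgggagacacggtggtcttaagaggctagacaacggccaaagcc
A window with AGATAA or TTATCT was found for 11.4% of the 27025 genes in the promoter table, where a gene with several windows counted if any held the motif. The table held 6277 of the 7795 genes measured in the progenitors, and 6.71% of these had the motif. Of the genes called higher and lower in spleen the shares were 8.91% of 202 and 8.80% of 284. In lists of this program the motif was found for 3 of 15 erythroid transcription factors and 3 of 12 red cell membrane genes. None (0) of 16 genes of heme synthesis and transport had it. Such a match describes the letters in this window only.

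The label was checked against its other markers. Gata1, which the rule did not use, had a UMI in 88.2% of marrow and 95.0% of spleen members, against 2.65% and 0.544% of the other cells of the same libraries. Epor had one in 63.1% and 77.1% of members, against 0.748% and 0.272% of other cells. The median depth of members was 25880 UMIs in marrow and 39120.5 in spleen, and that of the other cells 7717 and 3378. Kit had a UMI in 88.2% and 96.3% of members. Hemoglobin genes took at most 0.0216% of a marrow member's UMIs and 0.0332% of a spleen member's, and 0 cells of either tissue with the Klf1 and Car1 counts of the rule reached the limit of 50%. Alas2, the enzyme of heme synthesis that rises as hemoglobin is made, had 0 UMIs in the marrow sums and 1 in the spleen sums.

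Klf1 and Car1 chose the cells, and their levels are a description. Summed over each hashtag, Klf1 was at 183 ± 27.3 CPM (UMIs of the gene in every 1000000 UMIs of the sum) in marrow (SD, n = 5) and 155 ± 18.8 in spleen (SD, n = 7). Car1, a carbonic anhydrase of early red cells, was at 3253 ± 251 and 3252 ± 275 CPM. Near the limits, 43 marrow and 28 spleen members had 1 Klf1 UMI, and 3 in each tissue had 2 Car1 UMIs. Just outside, 41 marrow and 36 spleen cells had 2 or more Car1 UMIs and no Klf1 UMI, and 6 in each tissue had Klf1 with 1 Car1 UMI.

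A single hashtag was called on 167 marrow and 202 spleen members. The libraries shared 31 barcode sequences, and 1 marrow member carried such a barcode. Hashtags with at least 15 members gave 5 sums in marrow (hashtags 2, 3, 5, 6 and 8, 133 cells) and 7 in spleen (1, 2, 3, 4, 5, 6 and 8, 190 cells). A sum held 16 to 45 cells in marrow and 16 to 49 in spleen. Totals ran from 346403 to 1183523 UMIs in marrow and from 768266 to 2026545 in spleen. Members were 2.84% to 3.78% of the cells of a hashtag in marrow and 2.49% to 6.61% in spleen, and these ranges overlap.

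Of the genes that mark the lineage, Gata1 and Epor were not called between the tissues, while Gata2 and Icam4 were lower in spleen. Of called genes whose mean over the sums reached 20 CPM, Hes1 and Sh3tc2 rose most. Of 7793 genes with at least 100 UMIs over the sums, edgeR called 247 (3.17%) higher and 362 (4.65%) lower in spleen at an adjusted p under 0.05, which is 7.81% in either direction. With total UMIs in place of TMM library sizes the split turned to 360 higher and 223 lower, as the median change of all genes moved from 0.01 to 0.08 on the log2 scale. The sums of both tissues did not overlap for 330 genes (4.23%).

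Among regulators of the lineage, Gata1 was at 121, 103, 127, 111 and 118 CPM in the marrow sums of hashtags 2, 3, 5, 6 and 8, the order used for every marrow series below. In spleen it ran from 99.3 over a median of 109 to 120.2 CPM. These ranges overlap, and the log2 change was -0.05 ± 0.09 (SE, adjusted p = 0.90). Epor was at 64.7, 43.4, 64.6, 52.1 and 58.9 CPM in marrow and from 47.1 over 51.8 to 57.0 in spleen. It too overlapped, with a log2 change of -0.07 ± 0.13 (adjusted p = 0.90).

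Gata2 was the regulator with the largest difference. It was at 106, 74.5, 79.2, 49.9 and 105 CPM in marrow, and in spleen from 17.2 over 30.0 to 36.4. Every spleen sum was below every marrow sum, and the log2 change was -1.49 ± 0.19 (adjusted p = 8.8e-06). A Gata2 UMI was found in 71.9% of marrow and 50.9% of spleen members, although the spleen members were deeper. Cd34, a surface protein of early progenitors, had too few UMIs for the test, 15 in the marrow and 5 in the spleen sums. It had a UMI in 24 of 203 marrow and 3 of 218 spleen members (11.8% and 1.38%), which is close to the 10.4% and 1.46% of the other cells of each library.

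The list of stem and early progenitor genes had 13 members tested. None was higher and 2 were lower (15.4% called, against 7.81% of all genes), Gata2 and Myc, and the median log2 change was 0.02. Myc, a driver of growth, changed by -0.36 ± 0.10 (adjusted p = 0.034), a call lost in 16 of 29 alternative analyses. Of 18 erythroid transcription factors, 1 was higher and 1 lower (11.1% called, near the 7.81% of all genes), with a median of -0.04. The higher one was Tal1, at 94.1, 81.5, 81.3, 73.7 and 96.9 CPM in marrow and from 95.4 over 110.0 to 131 in spleen, where only the ends of the ranges overlapped. Its log2 change was 0.42 ± 0.11 (adjusted p = 0.018), and it missed the threshold in 6 of 29 alternatives, among them those without marrow hashtag 3 (adjusted p = 0.059) and without marrow hashtag 6 (0.072). Lmo2, a bridging partner of TAL1, was lower by -0.30 ± 0.08 (adjusted p = 0.018), a call lost in 6 of 29 alternatives. With total UMIs as library sizes the list had 2 genes higher and none lower.

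**Figure D1:**
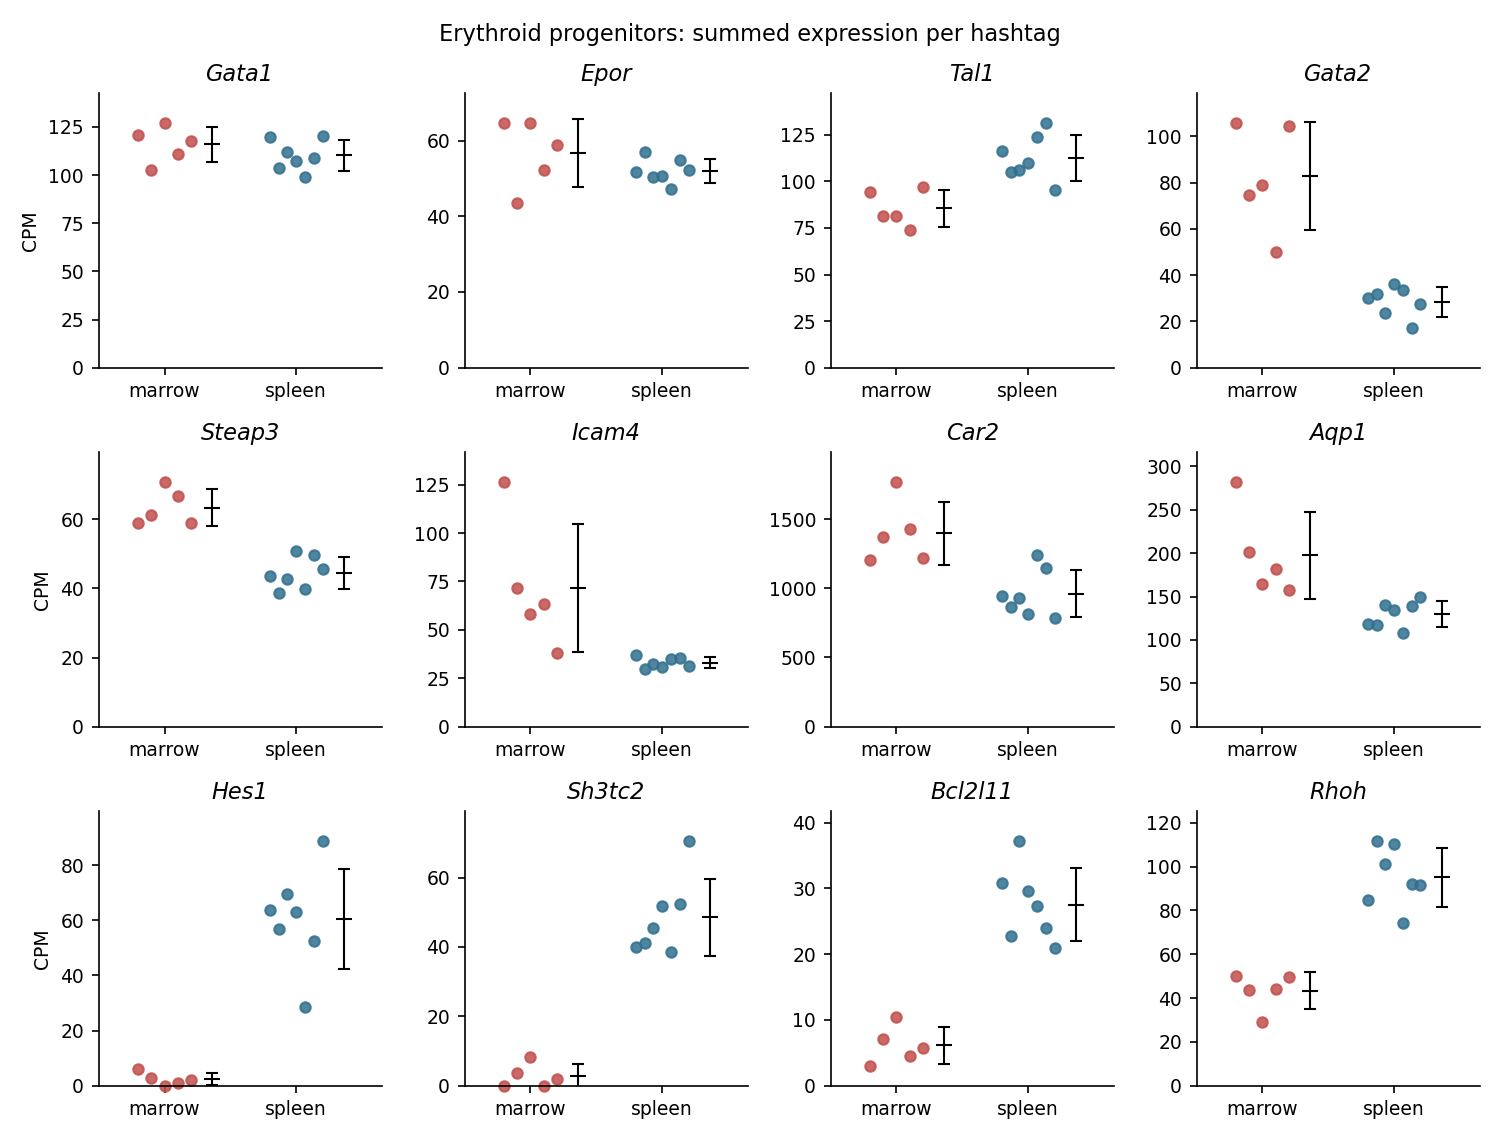
Level of 12 genes in the summed erythroid progenitors of each hashtag, in CPM on linear axes from 0. Each point is 1 hashtag (5 in marrow, 7 in spleen), and the bars beside them show mean and SD; Gata1 and Epor overlap between tissues, while the spleen points of Gata2 lie below, and those of Hes1, Sh3tc2, Bcl2l11 and Rhoh above, all marrow points.

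The red cell membrane and cytoskeleton list had 2 genes higher and 6 lower of 18 tested (44.4% called, against 7.81% of all genes), with a median of 0.05. Icam4 was at 126, 71.8, 58.3, 63.5 and 38.0 CPM in marrow and from 29.6 over 32.3 to 37.3 in spleen. Marrow hashtag 2 was highest and hashtag 8 close to the spleen range, and the log2 change was -1.05 ± 0.18 (adjusted p = 0.00066).

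The water channel Aqp1 was lower by -0.58 ± 0.12 (adjusted p = 0.0028), from 197 ± 50.3 CPM in marrow to 129.6 ± 15.1 in spleen (SD, n = 5 and 7). Car2, the carbonic anhydrase that follows Car1 in maturing red cells, was at 1205, 1371, 1769, 1426 and 1216 CPM in marrow and from 788 over 929 to 1242 in spleen. Only 1 spleen sum lay within the marrow range, and the log2 change was -0.54 ± 0.10 (adjusted p = 0.0014). Rhd and Mns1 of the list were also lower, by -0.53 and -0.34 on the log2 scale, with calls lost in 14 of 28 and 5 of 29 alternatives. Mns1 encodes a meiosis-specific nuclear structural protein, not a known protein of the red cell membrane, and the 6 lower genes of the list include it. Mns1 lost its call with total UMIs (adjusted p = 0.064) and without marrow hashtag 3 (0.078).

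In the same list Epb41, the band that ties spectrin to the membrane, was higher by 0.61 ± 0.17 (adjusted p = 0.025), a call lost in 3 of 28 alternatives. Gypc, which anchors that band, was higher by 0.53 ± 0.16 (adjusted p = 0.036), and its call was lost in 12 of 28. Genes of this list thus moved in both directions, with its median beside 0.01 for all genes. With total UMIs as library sizes 2 were higher and 4 lower.

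No gene passed in 2 central lists. Heme synthesis and transport had 0 of 18 tested genes called and a median of -0.14, and erythropoietin signalling 0 of 10 and 0.00. The heme gene with the smallest adjusted p was Abcb10, a mitochondrial transporter, at 0.60 ± 0.19 (adjusted p = 0.057). With total UMIs as library sizes 1 heme gene was called higher. Iron handling had 2 of 18 genes lower and none higher (11.1% called, near the 7.81% of all genes), or 1 each way with total UMIs. Steap3, which reduces the iron taken up by transferrin, was at 58.8, 61.2, 70.8, 66.9 and 58.9 CPM in marrow and from 38.8 over 43.6 to 50.7 in spleen, without overlap (log2 change -0.51 ± 0.12, adjusted p = 0.011). Fth1, the ferritin heavy chain, was lower by -0.24 ± 0.06 (adjusted p = 0.022), a call lost in 9 of 29 alternatives.

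Of 23 genes of G1 and S phase, 1 was lower (4.35%), Tyms, and of 20 genes of G2 and M phase, 1 was lower (5.00%), Ube2c. These shares lay near the 7.81% called among all genes. Their log2 changes were -0.36 and -0.37, and the calls were lost in 17 of 28 and 9 of 29 alternatives. The medians of the lists were 0.09 and -0.05. Lists of BMP and stress erythropoiesis (10 genes), glucocorticoid response (9), organelle clearance (13) and CDK inhibitors with p53 targets (7) had no called gene. The antioxidant list had 1 of 16 (6.25%), Prdx2, lower by -0.23 with a call lost or turned in 11 of 29.

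**Figure D2:**
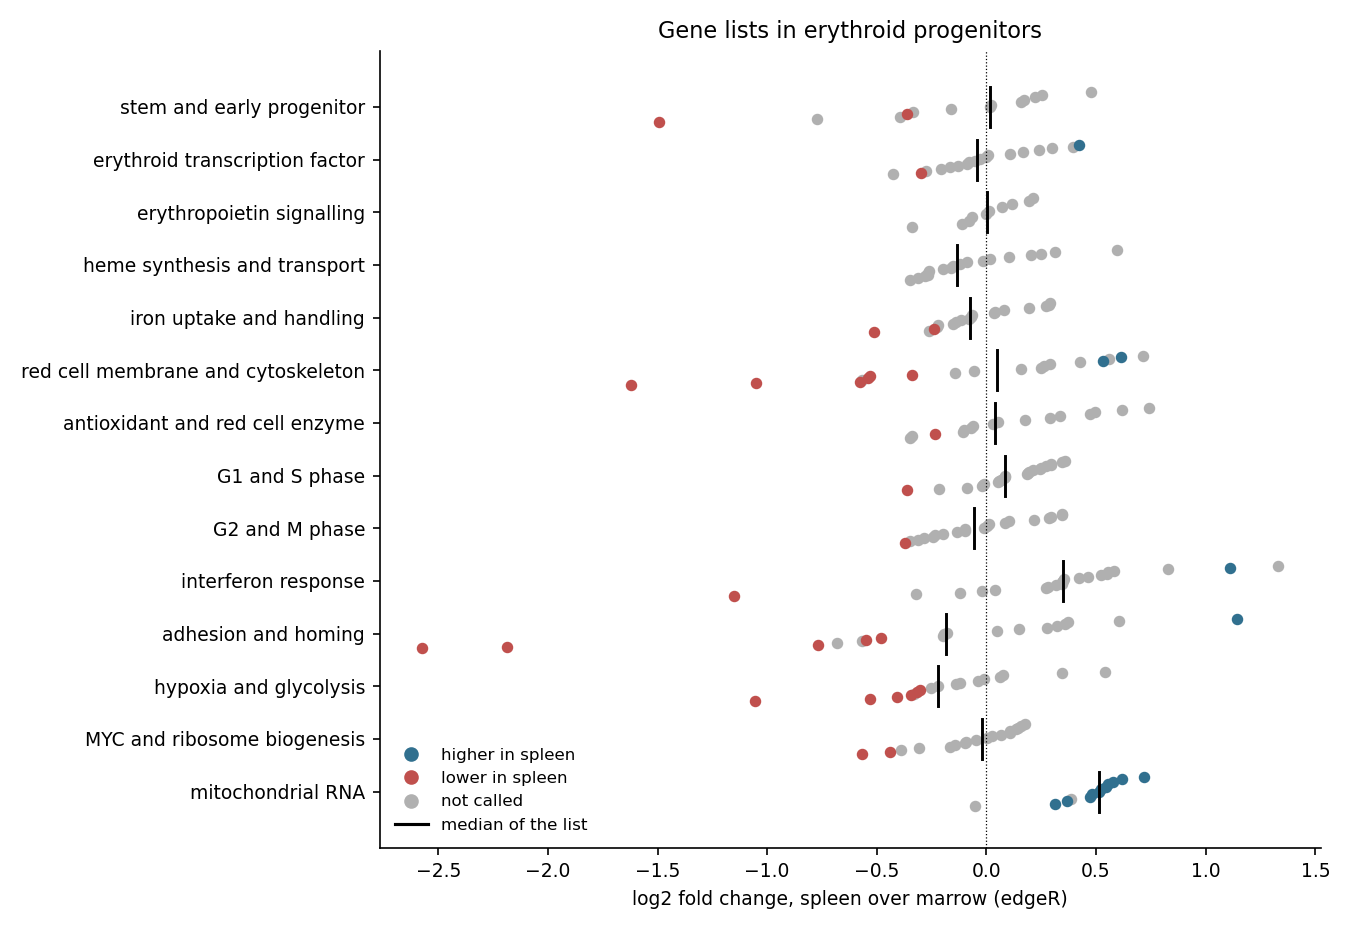
Log2 fold change of spleen over marrow for every tested gene of 14 lists, 1 point per gene. Blue points were called higher and red points lower in spleen by edgeR, grey points were not called, and the black line is the median of the list; the erythroid lists center near 0, while the mitochondrial RNA list centers at 0.51.

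Hes1, a repressor that Notch signalling induces, was at 5.88, 2.66, 0, 1.13 and 1.90 CPM in marrow (7 UMIs in all) and from 28.5 over 63.2 to 88.9 in spleen (480 UMIs). The groups lay far apart, and the log2 change was 4.78 ± 0.39 (adjusted p = 4.2e-08). Other cells of the libraries differed too, with Hes1 at 0.427 CPM in marrow and 20.8 in spleen. Sh3tc2, a protein of endosome recycling, was at 0, 3.55, 8.33, 0 and 1.90 CPM in marrow and from 38.5 over 45.6 to 70.6 in spleen (log2 change 4.10 ± 0.36, adjusted p = 9.7e-08). Hardly any Sh3tc2 was found outside the progenitors, 0.0171 CPM in the other marrow cells and 0.145 in those of spleen.

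Col18a1 and Spata13 were picked after their values were seen, because almost all of their UMIs were in spleen. Col18a1, a basement membrane collagen, had 3 UMIs in marrow and 149 in spleen, a ratio per UMI of 22.4 (95% interval 7.52 to 110, counting error only). Spata13, an activator of small GTPases, had 1 and 175 UMIs, a ratio of 79.0 (14.0 to 3136). Both were called by edgeR (adjusted p = 7.8e-06 and 4.2e-07).

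Bcl2l11, which encodes the death-promoting protein BIM, was at 2.94, 7.09, 10.4, 4.53 and 5.70 CPM in marrow and from 20.9 over 27.3 to 37.2 in spleen. Its groups were apart, with a log2 change of 2.16 ± 0.27 (adjusted p = 9.9e-06). It was the only called gene of 11 in the apoptosis and survival list (9.09%, near the 7.81% of all genes). Other cells had more of it than the members, 11.3 CPM in marrow and 40.8 in spleen. Rhoh, a small GTPase of blood cells, was at 49.98, 43.4, 29.2, 44.2 and 49.4 CPM in marrow and from 74.4 over 91.9 to 112 in spleen (log2 change 1.14 ± 0.14, adjusted p = 7.3e-06). Myh10, a nonmuscle myosin, rose from 38.0 ± 8.63 to 98.6 ± 13.4 CPM (SD, n = 5 and 7; log2 change 1.41 ± 0.15, adjusted p = 1.4e-06).

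Ptgr1, a reductase of prostaglandins, rose from 21.3 ± 10.3 to 71.5 ± 19.8 CPM (log2 change 1.56 ± 0.23, adjusted p = 9.7e-05). Scin, an actin-severing protein, was at 0, 7.98, 10.4, 2.27 and 15.2 CPM in marrow and from 16.3 over 27.0 to 90.9 in spleen. The spleen sums spread widely there, and the lowest lay just above the marrow range (log2 change 2.50 ± 0.52, adjusted p = 0.0034). Mt2, a metallothionein, and Nfia, a transcription factor that favours the red over the white lineage, were added after their values were seen. Mt2 rose by 1.05 ± 0.11 (adjusted p = 9.4e-07) and Nfia by 0.85 ± 0.12 (adjusted p = 5.8e-05).

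Lgals1 and Cd63, both of the list of adhesion and homing, were lower in spleen. Lgals1, a galactoside-binding lectin, was at 206, 189.7, 235, 175 and 47.5 CPM in marrow and from 13.7 over 22.01 to 42.2 in spleen. Marrow hashtag 8 lay next to the spleen range and the other marrow sums far above it (log2 change -2.57 ± 0.27, adjusted p = 8.7e-07). Cd63, a tetraspanin of late endosomes, was at 109, 98.4, 83.3, 70.3 and 70.3 CPM in marrow and from 6.87 over 18.2 to 45.9 in spleen (log2 change -2.19 ± 0.26, adjusted p = 3.7e-06). Both were more abundant in other cells: Lgals1 at 451 CPM in the other marrow cells and 226 in those of spleen, Cd63 at 235 and 87.6.

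Csrp3, a LIM protein best known from muscle, was at 49.98, 41.7, 75.0, 29.5 and 57.0 CPM in marrow and from 2.48 over 8.33 to 21.5 in spleen (log2 change -2.20 ± 0.32, adjusted p = 6.6e-05). Here the members lay above the other cells, which had 7.81 CPM in marrow and 2.03 in spleen. Igfbp4, which binds insulin-like growth factors, fell from 38.3 ± 9.49 to 8.91 ± 4.85 CPM (SD, n = 5 and 7; adjusted p = 9.9e-06). Apoe, a lipid carrier named after its values were seen, changed by -1.11 ± 0.11 (adjusted p = 4.2e-07). The adhesion and homing list, which also holds Rhoh, had 1 gene higher and 5 lower of 18 tested. This was 33.3% called, against 7.81% of all genes. Its median was -0.19, and with total UMIs 4 genes were higher and 5 lower.

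Of 17 tested genes of the hypoxia and glycolysis list, 6 were lower and none higher (35.3% called, against 7.81% of all genes), with a median of -0.22 against 0.01 over all genes. Aldoa, which splits fructose bisphosphate, was at 259, 309, 231, 235 and 272 CPM in marrow and from 168 over 181 to 202 in spleen, without overlap (log2 change -0.53 ± 0.09, adjusted p = 0.00025). Pkm, a pyruvate kinase, was lower by -1.06, Eno1 by -0.41, Tpi1 by -0.34, Ldha by -0.31 and Gapdh by -0.30. These 5 calls were less firm: Pkm lost its call in 4 of 25 alternatives (log2 change -0.58, adjusted p = 0.29 without marrow hashtag 3), Eno1 in 17 of 28, Tpi1 in 7 of 29, Ldha in 4 of 29 and Gapdh in 7 of 29. With total UMIs as library sizes the list had 1 gene higher and 4 lower, and with DESeq2 none and 4.

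Mitochondrial transcripts were higher in spleen. All 11 called genes of the 13 tested (84.6%, against 7.81% of all genes) were higher in spleen, and the median was 0.51. mt-Co3, a subunit of cytochrome oxidase, was at 2011, 2119, 2252, 1926 and 1992 CPM in marrow and from 2849.8 over 3083 to 3593 in spleen (log2 change 0.62 ± 0.06, adjusted p = 4.2e-07). Mitochondrial genes made up a median of 1.08% of a marrow member's UMIs and 1.59% of a spleen member's. In classical monocytes of the same libraries mt-Co3 differed by 0.58, and the 2 differences were not told apart (interaction adjusted p = 0.89). In other Kit-positive progenitors mt-Co3 was at 2796 CPM in marrow and 2802 in spleen. These CPM are on total UMIs without TMM scaling, so they are not on the scale of the log2 changes. By interaction, 2 of the 13 mitochondrial genes differed from the other Kit-positive progenitors. The makeup of both classes, described below, differed between tissues. Mitochondrial share is also a sign of RNA quality, and its part in the other results was not tested.

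The interferon response list had 1 gene higher and 1 lower of 21 tested, with a median of 0.35. This was 9.52% called, near the 7.81% of all genes. The lower one was Ifitm1, a membrane protein of interferon response, which was at 432, 299, 592, 230.1 and 118 CPM in marrow and from 99.0 over 108 to 267 in spleen, with overlap (log2 change -1.15 ± 0.27, adjusted p = 0.0081). Its change shrank to -0.36 (adjusted p = 0.48) in members with Car1 at 0.2% or more of UMIs, and it missed the threshold with DESeq2 (0.052). Ifngr1, a chain of the interferon gamma receptor, was lower by -0.48 ± 0.09 (adjusted p = 0.0016), the only called gene of 12 cytokine receptors (8.33%). Of 18 genes of MHC class I and peptide loading 1 was lower (5.56%), H2-T23, with a call lost in 11 of 29 alternatives. These shares too lay near that of all genes. Of 5 MHC class II genes none was called.

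The lists of growth and of protein folding had 2 and 1 lower genes and none higher. These were 11.1% and 5.26% of the genes tested, near the 7.81% called among all genes, and the medians were -0.02 and -0.11. With total UMIs as library sizes the growth list had 1 gene higher and 2 lower, and the folding list 1 each way. Among 18 genes of MYC targets and ribosome making, Srm (spermidine synthase) was lower by -0.57 ± 0.10 and Fbl (fibrillarin, of the nucleolus) by -0.44 ± 0.08 (adjusted p = 0.00084 and 0.00050). Among 19 genes of the unfolded protein response, Pdia6, a disulfide isomerase, was at 138, 137, 152, 161 and 141 CPM in marrow and from 83.6 over 95.5 to 110.0 in spleen, apart from each other (log2 change -0.65 ± 0.10, adjusted p = 9.3e-05).

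Transcripts typical of other cells were also among the called genes. Of 9 tested neutrophil genes 8 were lower in spleen (88.9% called, against 7.81% of all genes), with a median of -3.28. DESeq2 called 3 of the 9 lower and gave no adjusted p for 4. Camp, a granule peptide of neutrophils, was at 171, 1204, 163, 111 and 133 CPM in marrow and from 5.70 over 12.4 to 22.3 in spleen. Other cells of the libraries had 17503 CPM of it in marrow and 4029.7 in spleen, so members held 0.0239 and 0.00290 of that level. Marrow hashtag 3 was far above the others, and without it the log2 change of Camp went from -5.04 to -3.57, of Ngp from -5.01 to -3.27 and of Lcn2 from -4.33 to -2.51, while S100a9 went from -1.69 to -0.82 and lost its call (adjusted p = 0.20). The summed neutrophil list ran from 1846 over 1927 to 10656 CPM in marrow and from 295 over 846 to 2944 in spleen, and of its 17 genes Fcnb was at 0 in spleen. Igkc, an antibody light chain, was higher in spleen members, 32.8 ± 5.53 against 3.81 ± 3.47 CPM, where other cells had 4650.1 and 278. The B cell gene Ms4a1 was at 0 in all members summed.

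Both tested genes of the monocyte and macrophage list, Lyz2 and Ly6c2, were lower in spleen, by -1.77 and -2.84 (adjusted p = 0.0049 and 0.00087). Lyz2, a lysozyme, stood at 9245 CPM in the other marrow cells and 6984 in those of spleen, and its call was lost in 3 of 29 alternatives. Cst3, a protease inhibitor and 1 of 2 tested genes of the dendritic cell list, went against the other cells. It was lower in spleen members (log2 change -0.36 ± 0.11, adjusted p = 0.039, lost in 15 of 29 alternatives), while the other cells had 902 CPM in marrow and 3986 in spleen. The part of free RNA from other cells in these differences was not tested.

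Of the 247 genes higher in spleen, 4 were in spleen members at under 0.1 of the level in the other spleen cells, 167 were at or above that level and 30 at 10 times or more. Of the 362 lower genes, measured in marrow, the counts were 24, 269 and 11. Leaving out members with S100a8 and S100a9 over 0.5% of UMIs kept 215 of the higher and 314 of the lower calls. Only 2 marrow and 9 spleen members with a hashtag were over this limit. The kept calls therefore say little about neutrophil RNA in members below it. The median share of S100a8 and S100a9 was 0.141% in marrow members and 0.0225% in spleen members, and 27.2% and 5.57% in the other cells.

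The tissue differences were set against those of 2 other classes in the same libraries. Classical monocytes had a Csf1r and at least 2 Ly6c2 UMIs and none of Klf1 or Car1 (8 sums in each tissue), and other Kit-positive progenitors had at least 2 Kit UMIs and none of Klf1, Car1, Csf1r or Ly6c2 (5 sums in marrow, 6 in spleen). The second class was not of the same makeup in both tissues. Its summed dendritic cell list ran from 393 over 450 to 3849 CPM in marrow (4 of 7 genes found) and from 10722 over 11374 to 12440 in spleen (7 of 7), and its MHC class II genes from 192 over 203 to 3448 and from 24884 over 27367 to 27884. Zbtb46, a transcription factor of dendritic cells, stood at 2.86 CPM in marrow and 167 in spleen, and Gata1 at 26.9 and 1.67. The monocyte sums were not alike in both tissues either. Their summed neutrophil list had a median of 45478 CPM in marrow and 24395 in spleen, and their MHC class II genes 302 and 1794. Ube2c, of the G2 and M phase list, stood at 290 and 78.0 CPM in monocytes. Interaction with monocytes was called for 22 of 23 genes of G1 and S phase and 20 of 20 of G2 and M phase. In every interaction with either class, tissue and makeup of the class cannot be told apart. The interaction with monocytes was called for 2214 of 7793 genes (28.4%) and that with the other progenitors for 2311 (29.7%). Among the 609 genes called in erythroid progenitors, 257 (42.2%) and 249 (40.9%) differed from the class, while 312 (51.2%) and 268 (44.0%) were called in the same direction in it. Whether called genes differ from a class more often than other genes was not tested.

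Hes1 was higher in spleen in all 3 classes. It differed by 4.95 in monocytes and 5.20 in other progenitors, and neither was told apart from the 4.78 of erythroid progenitors (interaction adjusted p = 0.85 and 0.79). The marrow sums held only 8 Hes1 UMIs in monocytes and 1 in other progenitors, so the sizes of these changes are imprecise. Bcl2l11 differed by 1.24 in monocytes (interaction adjusted p = 0.033) and by 1.92 in other progenitors (0.78).

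Other differences had another size or direction in these classes. Rhoh differed by 0.14 in monocytes and -0.56 in other progenitors, against 1.14 here (interaction adjusted p = 0.0060 and 5.5e-05). Ptgr1 differed by -0.21 and -2.92, against 1.56 (interaction adjusted p = 5.2e-05 and 6.8e-05). Its value in other progenitors rests on 20 UMIs in marrow and 4 in spleen. Ifngr1 was higher in both classes, by 1.28 and 2.39, and lower here by -0.48 (6.3e-13 and 1.3e-13). Lgals1 fell further in erythroid progenitors than in either class, with -0.88 and -0.14 against -2.57 (0.00018 and 6.2e-05), though it was called lower in monocytes too (adjusted p = 0.00014). Sh3tc2 had no UMI in the sums of either class, so no such comparison exists for it.

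**Figure D3:**
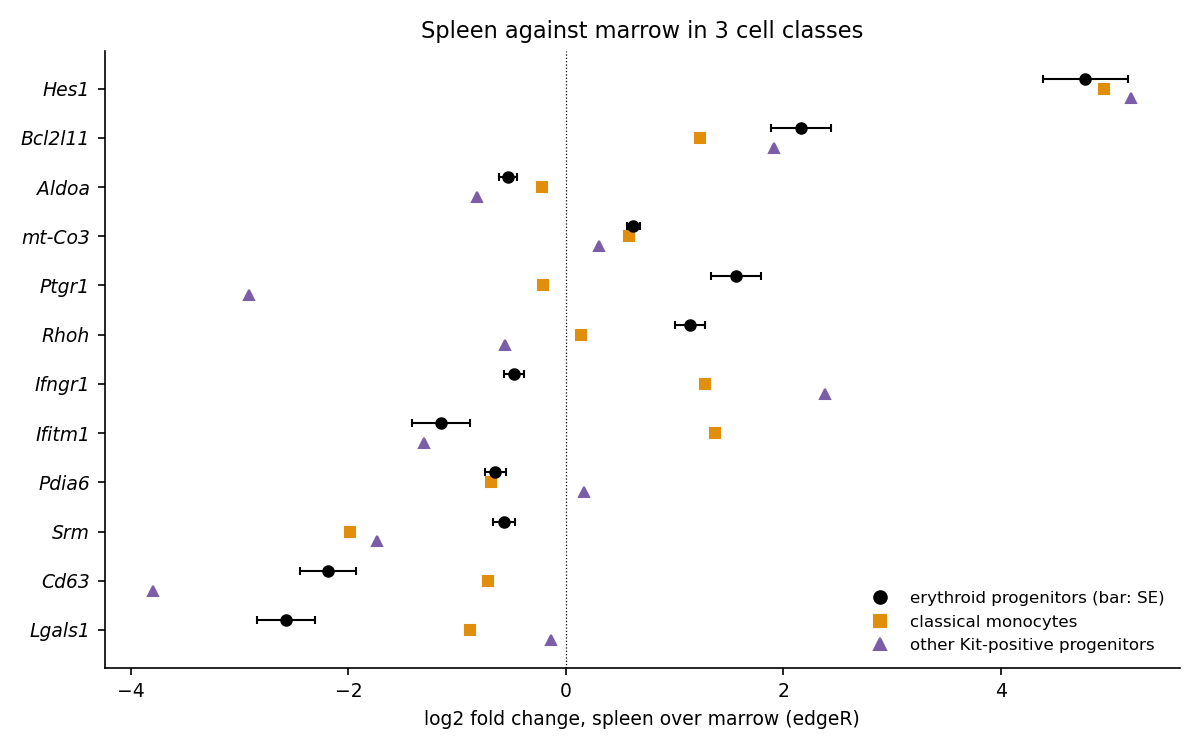
Log2 fold change of spleen over marrow of 12 genes in erythroid progenitors (black circles, bars are SE), classical monocytes (orange squares) and other Kit-positive progenitors (purple triangles), drawn without error for the last 2 classes. Hes1 lies between 4.78 and 5.20 in all 3, while Ptgr1, Rhoh and Ifngr1 have erythroid values apart from both other classes.

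Surface proteins were read from 18 antibodies, as the percent of all surface antibody counts of a sum. An exact permutation test, taken on both sides, over the 5 and 7 sums has 792 arrangements and cannot go below p = 0.00126. It called 8 of 18 proteins (44.4%) after adjustment, 3 higher and 5 lower in spleen. CD44, a receptor for hyaluronan, was at 36.4%, 41.5%, 33.0%, 35.4% and 38.9% in marrow and from 46.8% over 50.3% to 53.4% in spleen, without overlap (exact adjusted p = 0.0045). CD49d, the alpha chain of an integrin that binds fibronectin and VCAM1, was at 5.42%, 5.32%, 5.27%, 6.40% and 6.16% in marrow and from 7.30% over 9.70% to 11.1% in spleen (exact adjusted p = 0.0045). CXCR2, a chemokine receptor, rose from 0.154% ± 0.0421 to 0.301% ± 0.0595 (SD, n = 5 and 7; exact adjusted p = 0.0076).

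CD24, a small anchored sialoprotein, was at 36.4%, 28.8%, 45.1%, 33.0% and 31.0% in marrow and from 14.5% over 19.6% to 20.3% in spleen (exact adjusted p = 0.0045). CD106, which is VCAM1, was at 1.82%, 1.32%, 0.814%, 1.34% and 1.11% in marrow and from 0.143% over 0.191% to 0.729% in spleen (exact adjusted p = 0.0045). CD64 and the antibody labelled CD1632, both against Fc gamma receptors, fell from 0.177% to 0.0572% and from 1.01% to 0.345%, and CXCR4, the receptor that holds cells in the marrow, fell from 2.12% to 1.25% (exact adjusted p = 0.0045, 0.0097 and 0.014). CD1632 and CXCR4 overlapped between tissues, and the other called proteins did not. cKit was at 9.07% ± 1.01 and 10.5% ± 2.37 (SD, n = 5 and 7) and was not called (exact permutation adjusted p = 0.40).

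Percentages of 1 total depend on each other, and other cells of the libraries shifted as well. As counts per cell CD44 was at 359 in marrow and 451 in spleen and was not called (exact permutation adjusted p = 0.32), while CD49d went from 55.6 to 84.5 and kept its call (0.017). CD24 went from 343 to 169 counts per member and from 337 to 126 per other cell, and CD106 from 12.3 to 2.45 and from 10.2 to 2.10. Relative to other cells of the same hashtag, a measure added after the data were seen, CD24, CD106, CD49d, CXCR2 and CXCR4 were not called (exact permutation adjusted p = 0.58, 0.67, 0.28, 0.76 and 0.67). On that measure cKit and CD44 were called higher, and CD11a, CD1632, CD64 and MHCII lower. Members had cKit at 87.3 counts per cell in marrow and 88.9 in spleen, while other cells went from 9.17 to 3.54. MHCII was at 13.7 and 12.4 in members, while other cells went from 14.6 to 77.5. As counts per member cKit, MHCII and CD11a were not called (exact permutation adjusted p = 0.85, 0.91 and 0.65). CD1632 and CD64 were called lower there too (0.011 and 0.0076). CD64 lay at low counts, 1.67 per member in marrow and 0.479 in spleen, against 1.60 and 0.882 per other cell. CXCR2 was low as well, at 1.47 and 2.62 per member.

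Of the genes of the antibody targets, 10 had enough UMIs for the test. Cd44, Itga4 (CD49d), Cd24a, Cxcr4, Kit and Itgal (CD11a) were not called, with log2 changes of 0.32, 0.37, 0.15, 0.05, 0.22 and 0.80. Itga4 had the smallest adjusted p of these (0.37 ± 0.13, adjusted p = 0.078), and 5 of 29 alternatives called it higher, among them the one with total UMIs (adjusted p = 0.040). Of the MHCII antibody's possible targets H2-Aa, H2-Ab1 and H2-Eb1 none was called, with -1.34, -0.28 and -0.64. Ly6c2, a target of the Ly6C antibody, was called lower, at 2.94, 24.8, 6.25, 66.9 and 19.0 CPM in marrow and from 0 over 2.87 to 8.82 in spleen, with overlap (log2 change -2.84 ± 0.51, adjusted p = 0.00087). The other cells had 1102 CPM of it in marrow and 388 in spleen. Ly6C protein was at 2.26% ± 0.423 and 1.90% ± 0.497 (SD, n = 5 and 7) and was not called (exact permutation adjusted p = 0.37). As counts per cell Ly6C went from 21.9 in marrow to 16.2 in spleen and was called lower (exact permutation adjusted p = 0.028). Relative to other cells of the same hashtag it was not called (0.85). RNA and protein were not tested against each other.

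**Figure D4:**
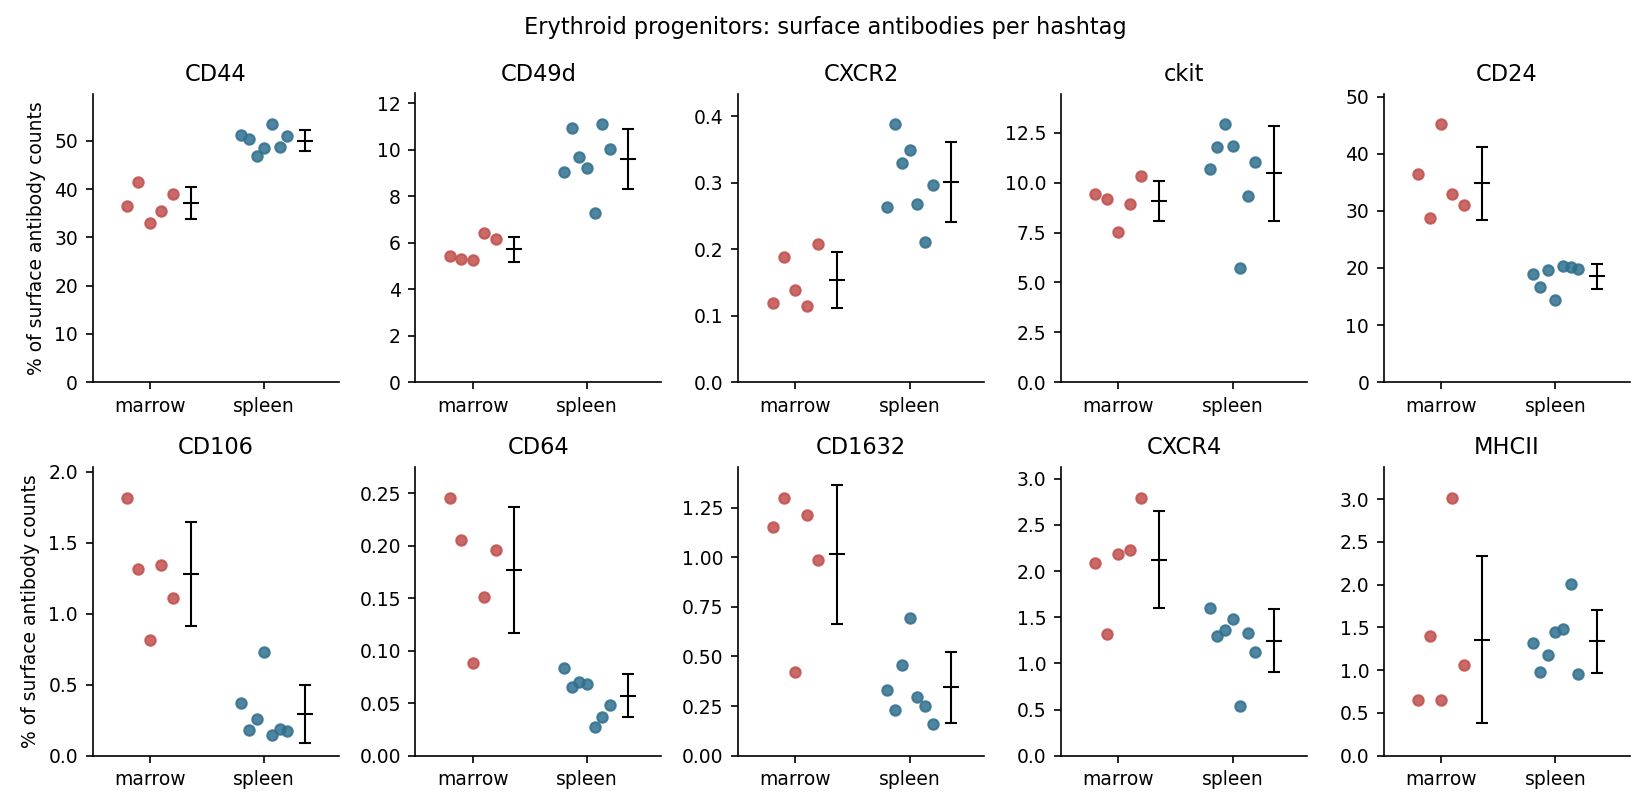
Share of 10 surface antibodies in all surface antibody counts of the erythroid progenitors of each hashtag, in percent on linear axes from 0. Each point is 1 hashtag (5 in marrow, 7 in spleen) with mean and SD beside it; CD44, CD49d and CXCR2 lie higher in spleen, CD24, CD106 and CD64 lower, all without overlap, while cKit and MHCII overlap.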

How the data were processed

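The authors deposited raw UMI counts per cell, with no normalization, of 32285 genes, 10 hashtag and 18 surface antibodies; per the file headers and the submitters' processing notes they were made with Cell Ranger 7.0.1 on mm10. The barcode suffix was tied to a tissue through the library names, which is an assumption. A hashtag was called from a count of at least 20 and 3 times the next, among the first 8. Cells without a single hashtag entered no sum, which was the only treatment of doublets. Raw counts were summed per tissue and hashtag over 15 or more members and tested with edgeR 4.0.16 (quasi-likelihood, TMM; limma 3.58.1, R 4.3.3) on genes with 100 or more UMIs, with Benjamini-Hochberg adjustment over the 7793 genes other than those of the rule. Every adjusted p of a gene is from this test unless DESeq2 1.42.0 is named. Fold changes are log2. Tested on simulated data of this comparison (7795 genes), 83% of log2 changes of 1 and 97% of 2 were called, and 0.184% of unchanged genes. Intervals and low counts cover counting error only. Interactions used the same test over both classes. Genes named are the markers, the 12 largest and 12 smallest changes at 20 CPM or more and up to 4 per list, 129 in all; other genes in the text were added after their values were seen, the antibody targets because the antibodies name them. Members and lists were chosen with earlier results of these data known. Some genes of the lists count in the totals but are not reported here by name.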

Additional observations from a re-analysis of the deposited data

Results flagged for a closer look

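Single sums stood apart from the rest of their tissue in 19 cases, out of 176 groups of sums looked at, where chance gives about 5%. In marrow, hashtag 3 was highest for 5 neutrophil genes: Camp at 1204 CPM against a marrow median of 163, Ngp at 934 against 89.6, Lcn2 at 587 against 56.3, Ltf at 276 against 24.7 and S100a9 at 3948 against 813. Marrow hashtag 5 was high for Abcb10 (31.3 CPM, median 19.0), hashtag 8 held the single marrow UMI of Spata13 (1.90 CPM, median 0), and hashtag 6 was high for the surface protein CD115 (0.242% of surface counts, median 0.0437%) and for the MHC class II genes H2-Eb1 (63.5 CPM, median 0), H2-Aa (83.9, median 0) and H2-Ab1 (98.6, median 31.0). In spleen, hashtag 5 was high for Cd63 (45.9 CPM, median 18.2) and S100a9 (1252 CPM, median 408), hashtag 6 for H2-Eb1 (30.1 CPM, median 6.203) and H2-Aa (27.5, median 5.45), hashtag 3 for Ly6c2 (8.82 CPM, median 2.87) and Lyz2 (172, median 38.8), and hashtag 4 for CD11a (3.26%, median 2.29%) and CD106 (0.729%, median 0.191%).

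The difference between spleen and marrow was not the same in erythroid progenitors as in classical monocytes for 2214 genes, or as in other Kit-positive progenitors for 2311 genes, by the interaction test.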

How the results depend on the processing

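Hashtags of 1 number in both tissues had deviations with correlations of 0.151, 0.012, 0.047, 0.187 and 0.065 (hashtags 2, 3, 5, 6 and 8), not all above 0.1. Marrow hashtags 2, 6 and 8 correlated best with the spleen hashtag of their own number, and marrow hashtags 3 and 5 did not. Whether 1 number marks 1 mouse in both tissues is not known, and the main test did not pair the sums. The replicate block gave 250 genes higher and 354 lower, against 189 and 256 for the same hashtags without the block, and no surface protein (0 called, since the smallest exact p is then 0.0625). Leaving out 1 sum at a time gave 142 to 260 higher and 195 to 384 lower genes, lowest without marrow hashtag 3, 1869 to 2255 and 1813 to 2301 genes that differed from monocytes and from other progenitors, and 8 to 9 surface proteins. Higher and lower calls were 76 and 83 with 25 or more cells per sum, and 29 and 31 with cells thinned to 3000 UMIs, where 1360 genes could be tested; thinning left 326 and 232 genes that differed from monocytes and other progenitors. Lower calls were 223 with total UMIs and 222 with 10 or more cells per sum. Of alternatives added after the data were seen, Car1 at 0.2% or more of UMIs gave 151 and 163, and the rule applied after thinning, with 5 or more cells per sum, 67 and 69. No surface protein was called (0) with 25 or more cells per sum (smallest exact p 0.10) or with Car1 at 0.2% or more (0.0179). With 15 cells per sum the thinned rule left 1 sum in each tissue and could not be tested.

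Of 145 genes followed, 69 were called, and 33 of these kept call and direction in every alternative that could test them, Hes1, Sh3tc2, Bcl2l11, Gata2, Icam4, Rhoh, Lgals1 and Cd63 among them. Hemoglobin under 5% and hemoglobin UMIs left out of library sizes, both counted as alternatives, kept all 247 and 362 calls. No member had more than 0.0332% hemoglobin UMIs, so these alternatives could hardly change a call. Prdx2 turned to 0.0141 (adjusted p = 0.98) with thinned cells, and Cd74, not called in the full set, to 3.93 (0.040) without marrow hashtag 6, where leaving out other sums went down to -2.28. Depth limits small changes: genes under 100 UMIs were not tested.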
